A study of Mus musculus with 2 samples.

Results

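The mir-148/mir-152 family consists of 3 miRNA genes in the mouse, Mir148a, Mir148b and Mir152. They were picked by symbol from the GENCODE M21 annotation and make up 3 of the 2202 miRNA genes counted, and all 3 had reads. Short RNA from the heart, taken as total RNA and kept below 30 nucleotides by the size label, was sequenced in 2 libraries. Both came from B6CASTF1/J males, a first-generation cross of the inbred B6 and CAST strains. They form a single group with an age label of 36 days and no labelled treatment. The labels number the animals and replicates separately but give both 1 donor record, so n = 2 counts samples and the spread between them may be partly technical. With no second tissue or age, the data allow a description of the family and a comparison of the libraries with each other.

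A miRNA is cut from a hairpin in its primary transcript, and 1 of the hairpin's arms, loaded into an Argonaute protein, pairs with mRNAs mainly through its seed, bases 2 to 8 from the 5′ end. The family is known for repressing mRNAs of the DNA methyltransferases Dnmt1 and Dnmt3b and, in liver, mRNAs of the LDL receptor and the cholesterol exporter Abca1. Mir148a in particular is known as an abundant miRNA of liver and pancreas. The targets, the host gene mRNAs and the separate arms were not measured here.

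The mature 3p strands show what defines the family. In the RefSeq sequences for GRCm38.p6, which held all 3 genes, the seed (in capitals) is the same in each, and no other gene among the table's 1738 mature entries carries it.
miR-148a-3p: uCAGUGCAcuacagaacuuugu
miR-148b-3p: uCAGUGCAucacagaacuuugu
miR-152-3p: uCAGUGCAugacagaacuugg
Positions counted from 1 at the 5′ end, miR-148b-3p differed from miR-148a-3p at 2 of 22 bases, C9U and U10C. From miR-148a-3p to miR-152-3p there were 3 changes over the 21 bases compared, C9U, U10G and U20G. From miR-148b-3p to miR-152-3p there were 2, C10G and U20G. All of these lie outside the seed, so the members differ in the middle and at the 3′ end.

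The 5p strands, from the opposite arm, do not share 1 seed.
miR-148a-5p: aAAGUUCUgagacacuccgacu
miR-148b-5p: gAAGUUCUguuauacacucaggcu
miR-152-5p: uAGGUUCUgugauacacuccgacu
Mir148a and Mir148b carry the same 5p seed, which no other gene in the table has, while the 5p seed of Mir152 was found in no other gene.

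Because reads were counted per hairpin, each level below sums both arms. The hairpins are given with the mature strands in capitals, the 5p strand first, to show what was counted.
Mir148a: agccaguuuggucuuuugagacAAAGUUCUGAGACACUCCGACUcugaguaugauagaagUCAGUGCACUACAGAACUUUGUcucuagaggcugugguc
Mir148b: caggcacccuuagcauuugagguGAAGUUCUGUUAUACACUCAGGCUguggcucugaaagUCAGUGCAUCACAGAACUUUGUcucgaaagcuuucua
Mir152: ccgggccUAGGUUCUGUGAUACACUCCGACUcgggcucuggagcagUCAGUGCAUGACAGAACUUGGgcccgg
The hairpins of Mir148a and Mir148b, 99 and 97 nucleotides long, have a GC content of 45.5% and 45.4%. That of Mir152 is shorter, at 73 nucleotides, and richer in GC, at 61.6%.

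The tables count only reads placed at a single locus, and 42.2% ± 0.987 (SD, n = 2) of all reads mapped to several places, so near-identical copies matter. Against the hairpins of the other 2201 annotated miRNA genes, the longest identical stretch was 15 nucleotides for Mir148a and Mir148b, shared with each other, and 13 for Mir152. None of the mature strands occurred whole in an annotated transcript of another gene. Each stretch is shorter than a mature strand, and copies elsewhere in the genome were not searched.

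The genes lie on different chromosomes of mm10. Mir148a (ENSMUSG00000065505.1) lies on chromosome 6 (51269812 to 51269910, minus strand), outside any other annotated gene. Mir148b (ENSMUSG00000065560.1) lies on chromosome 15 (103285125 to 103285221, plus strand), in intron 1 of all 4 annotated transcripts of Copz1. Mir152 (ENSMUSG00000065515.1) lies on chromosome 11 (96850393 to 96850465, plus strand), in intron 1 of the 3 transcripts of Copz2 that span it, out of 5. Copz1 and Copz2 are paralogs that encode zeta subunits of the COPI vesicle coat, and both hairpins are on the host's own strand. The hairpin starts 523 bases after the annotated start of Copz2, and 12411 bases after that of Copz1.

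Near all 3 hairpins stand genes of the Nfe2 and Cbx families, here on the 5′ side of each hairpin. Of the other families mapped, no Hnrnpa gene was found within 1500 kb of Mir152, and no Snx or Skap gene within 1500 kb of Mir148b. The families were picked after the neighbours had been seen. The nearest gene of the Nfe2 transcription factor family was Nfe2l3 at 162.8 kb from Mir148a, Nfe2 at 26.7 kb from Mir148b and Nfe2l1 at 20.4 kb from Mir152. A Cbx gene for a heterochromatin protein followed at 200.5 kb (Cbx3), 45.3 kb (Cbx5) and 41.8 kb (Cbx1). The map of these neighbours shows Mir148a as the member without a Copz host and with the widest spacing.

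**Figure D1:**
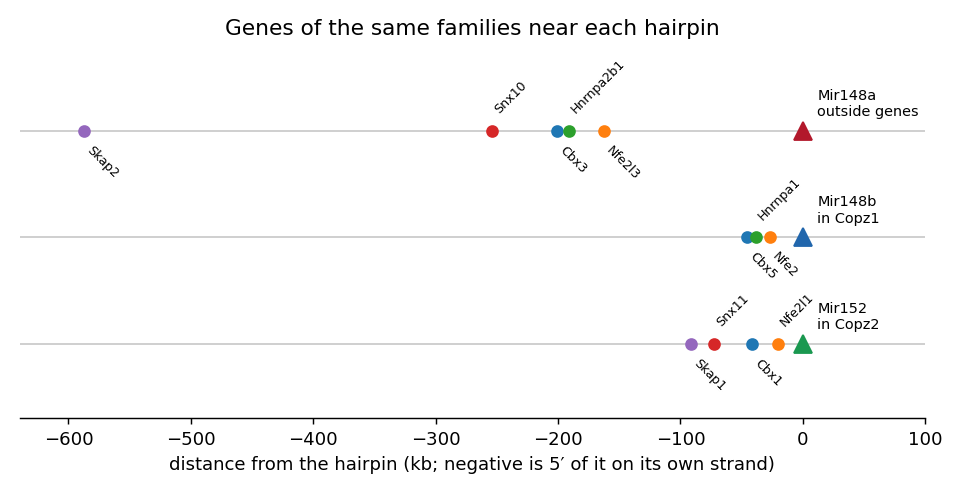
Distance in kb (x axis) from each hairpin (triangle) to the nearest gene of 5 families (dots, 1 colour a family), where 1 lies within 1500 kb. It is measured to the gene's nearer end on GRCm38, with negative values 5′ of the hairpin on its own strand. Mir152 has no Hnrnpa dot, and Mir148b has no Snx or Skap dot. Of the plotted families, which leave out the Copz hosts, a gene of the Nfe2 family lies nearest on each line, at 162.8 kb for Mir148a, 26.7 kb for Mir148b and 20.4 kb for Mir152.

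Levels are counts per 1000000 (CPM) of a library's sense reads in miRNA genes, 1999362 in library 1 and 1862526 in library 2. These were 37.3% ± 1.11 of all reads. Between 253 and 266 genes reached 10 CPM in a library, and the mean was 100 CPM or higher for 141. The heart label was met by Mir208a and Mir499, miRNAs carried in myosin heavy chain genes, at 5198 ± 2553 and 2239 ± 1277 CPM. They differed between the libraries in opposite directions, with 7004 CPM in library 1 and 3393 in library 2 for Mir208a, and 1336 and 3141 for Mir499. The heart muscle loci Mir1a-1, Mir133a-1 and Mir133a-2 had 2 to 6 reads a library, while Mir1a-2 had 115 and 102. All 4 of these loci share 22 nucleotides or more with another miRNA locus. Intervals below are exact 95% Clopper-Pearson or conditional binomial intervals, which cover counting error only. Nothing in the labels speaks of molecular identifiers, so repeated reads of 1 molecule could not be set apart and intervals may be too narrow.

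The mir-148/mir-152 family was a small part of the profile, with members that ranked between 131 and 174 in a library. Together they held 588 reads in library 1 and 504 in library 2. This is 0.0294% of assigned reads (0.0271 to 0.0319) and 0.0271% (0.0247 to 0.0295), a mean of 0.0282% ± 0.00166. The summed level was 294.1 CPM in library 1 and 270.6 in library 2. The ratio of library 2 to library 1 was 0.920, with an interval of 0.815 to 1.04 that includes 1. With trimmed mean (TMM) scaling its log2 went from -0.12 to 0.07, so the family sum had no direction that held under both scalings.

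Mir148a, the member outside any host gene, had 268 reads in library 1 and 146 in library 2. Its level was 134.0 CPM (118.5 to 151) in library 1 and 78.4 (66.2 to 92.2) in library 2, a mean of 106.2 ± 39.4. The 2 intervals did not overlap, and library 1 was the higher. Its rank among all genes was 131 in library 1 and 153 in library 2.

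Mir148b, the Copz1 member, had the fewest reads, 113 and 143. Its level was 56.5 CPM (46.6 to 67.9) in library 1 and 76.8 (64.7 to 90.4) in library 2, a mean of 66.6 ± 14.3. The intervals overlapped narrowly, with library 2 the higher. Its rank was 174 in library 1 and 156 in library 2.

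Mir152, the Copz2 member, was the most even between libraries, with 207 and 215 reads. Its level was 103.5 CPM (89.9 to 118.6) in library 1 and 115.4 (100.5 to 131.9) in library 2, a mean of 109.5 ± 8.42. The intervals overlapped over most of their width. Its rank was 143 and 133. The SD was 7.69% of the mean, against 21.5% for Mir148b and 37.1% for Mir148a. With TMM scaling the log2 ratios of library 2 over library 1 were 0.35 for Mir152, 0.63 for Mir148b and -0.58 for Mir148a. Mir152 then stayed the most even, but Mir148b was no longer more even than Mir148a.

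No read was counted on the antisense strand of any member in either library, which allows up to 3 reads, or 1.5 CPM in library 1 and 1.61 in library 2. No other miRNA gene overlaps a member on either strand. The counts of both strands together therefore equalled the sense counts for every member.

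**Figure D2:**
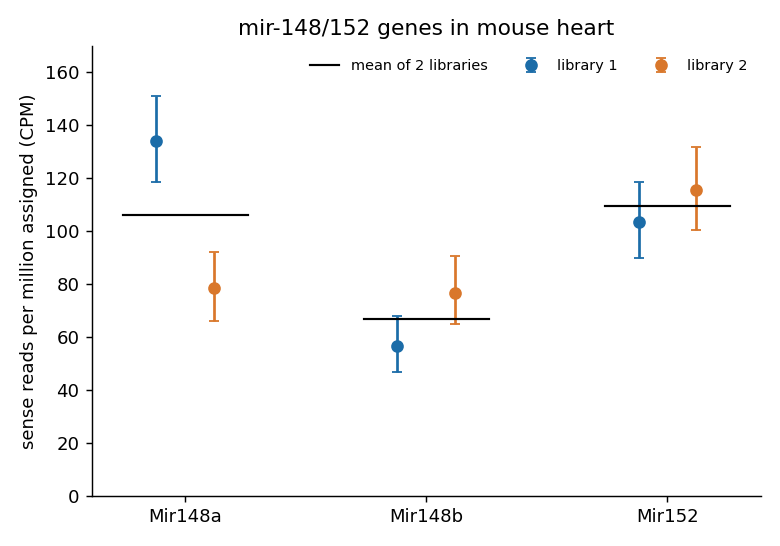
Level of each member in CPM (y axis) in library 1 (blue) and library 2 (orange), with exact 95% intervals for counting error as bars and the mean of the 2 libraries as a black line. Mir148a is at 134.0 CPM in library 1 and 78.4 in library 2, while Mir148b and Mir152 have their higher value in library 2.

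Over both libraries the order of mean levels was Mir152, Mir148a and Mir148b. The means of Mir152 and Mir148a differed by 3.27 CPM, within the SD of either. Mir148b lay 39.6 CPM below Mir148a, a gap close to the SD of Mir148a (39.4), so these neighbours did not differ clearly beyond their spread. Against Mir152 the gap was 42.8 CPM, above the SD of both genes. The order changed between libraries, with Mir148a first in library 1 and Mir152 first in library 2. Divided by the length of the 3p strand, 22, 22 and 21 bases, the levels per base were 6.09, 2.57 and 4.93 CPM for Mir148a, Mir148b and Mir152 in library 1. In library 2 they were 3.56, 3.49 and 5.50 CPM per base. The order in each library was the same as without division, but lengths this close could hardly have changed it.

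Ratios between members inside a library do not depend on how the libraries are scaled, and they differed between libraries for the pairs with Mir148a. The reads of Mir148a were 2.37 times those of Mir148b in library 1 (1.90 to 2.98) and 1.02 times in library 2 (0.805 to 1.29). Against Mir152 the ratio was 1.29 in library 1 (1.08 to 1.56) and 0.679 in library 2 (0.547 to 0.842). Both of these last intervals exclude 1, on opposite sides. Mir148b stayed below Mir152 in both libraries, with ratios of 0.546 (0.430 to 0.690) and 0.665 (0.535 to 0.826).

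Set against each other, the ratio of Mir148a to Mir148b was 2.32 times as high in library 1 as in library 2 (exact 95% interval 1.67 to 3.24). That of Mir148a to Mir152 was 1.91 times as high (1.43 to 2.54). For the pair with Copz hosts, Mir148b to Mir152, the value was 0.821 (0.593 to 1.13), an interval that includes 1. As shares of the family's reads, Mir148a gave 45.6% in library 1 (41.5 to 49.7) and 29.0% in library 2 (25.0 to 33.1). Mir152 gave 35.2% and 42.7%, and Mir148b 19.2% and 28.4%. With 2 libraries these differences describe the libraries, and no test between animals was possible.

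**Figure D3:**
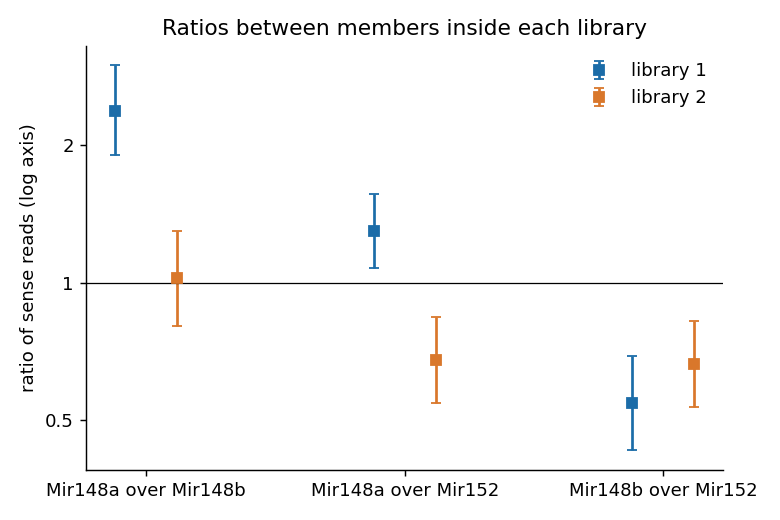
Ratio of sense reads between 2 members (y axis, log scale) in library 1 (blue) and library 2 (orange), with exact 95% intervals for counting error. Mir148a over Mir152 lies above 1 in library 1, at 1.29, and below 1 in library 2, at 0.679, while Mir148b over Mir152 lies below 1 in both.

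The members were then read from a test of all 344 genes with 10 or more reads summed over the libraries. This exact two-sided conditional binomial test, with Benjamini-Hochberg adjustment over all 344 genes, sets the 2 libraries against each other on counting error and says nothing of conditions. A gene was called at an adjusted p under 0.05 and at least a 2-fold ratio of CPM. By this rule 61 genes, 17.7%, were called, 19 higher in library 2 and 42 higher in library 1, while TMM scaling gave 29 and 27. Of the family, 0 of 3 members were called, also with TMM or DESeq2 scaling, and 2 of 3 had an unadjusted p under 0.05, beside 56.4% of all tested genes.

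By adjusted p alone, which 54.1% of all tested genes passed, 2 of 3 members passed, 1 in each direction. Mir148a had a log2 ratio of library 2 over library 1 of -0.77, a 1.71-fold higher CPM in library 1 (exact conditional binomial test, adjusted p = 4.67e-07). Mir148b had a log2 ratio of 0.44 (adjusted p = 0.0283 in the exact test), a CPM ratio of 1.36 with an interval of 1.05 to 1.75. Mir152 had a log2 ratio of 0.16 (adjusted p = 0.399 in the exact test), a CPM ratio of 1.11 with an interval of 0.917 to 1.36.

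The members' median log2 ratio was 0.16, beside -0.19 over all tested genes. TMM scaling shifts every log2 ratio by 0.19, and the values relative to the median gene were -0.58 for Mir148a, 0.63 for Mir148b and 0.34 for Mir152. Mir152 then passed the adjusted p (0.0299 in the exact test with TMM scaling), and no member changed direction. Shifts of this size were common in these libraries. Of the 344 tested genes, 105 had a log2 ratio at least as far from 0 as that of Mir148a, 181 as that of Mir148b and 277 as that of Mir152.

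**Figure D4:**
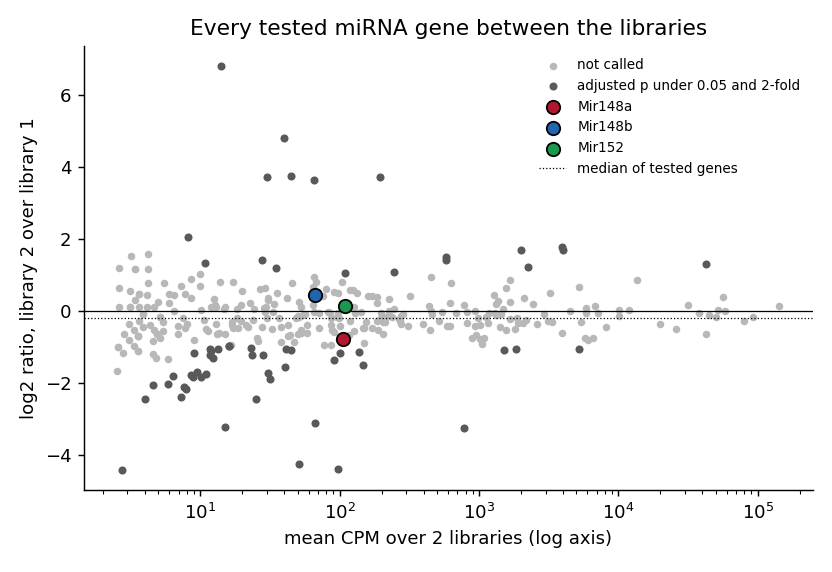
Log2 ratio of library 2 over library 1 (y axis) against mean CPM (x axis, log scale) for the 344 tested miRNA genes, with called genes in dark grey, the others in light grey, the family in colour and the median of all tested genes as a dotted line. The members lie inside the light band, Mir148a below the median line at -0.77 and Mir148b and Mir152 above it at 0.44 and 0.16.

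Genes with levels most like each member's were found by the Euclidean distance of log2(CPM + 1) over the 2 libraries, a likeness over only 2 points. Nearest to Mir148a was Mir409, of the imprinted Dlk1-Dio3 cluster, at a distance of 0.154, with 125.5 and 71.9 CPM. Mir92-2 (0.213) and Mir669o (0.260) came next. Nearest to Mir148b were n-TSaga9 (0.190), an entry named for a transfer RNA, with 49.5 and 78.4 CPM, then Mir664 (0.195) and Mir6236 (0.269). Nearest to Mir152 were Mir181a-1 (0.269), with 99.0 and 96.1 CPM, Mir186 (0.296) and Mir669c (0.327). Mir92-2, Mir669o, n-TSaga9, Mir181a-1 and Mir669c share 22 nucleotides or more with another miRNA locus, so their own levels are uncertain.

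The miRNA gene nearest to each member in the genome held next to no reads. For Mir148a this was Gm22914 at 351.7 kb, with 0 reads in both libraries. For Mir148b it was Mir6963 at 65.2 kb, with 3 and 1 reads, and for Mir152 it was Mir8103 at 213.3 kb, with 1 and 4.

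The mir-130/mir-301 family carries a seed that overlaps that of mir-148/mir-152 by 6 bases, shifted by 1 base. It is shown by its most abundant member, again with the seed in capitals.
miR-130a-3p: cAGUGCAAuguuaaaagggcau
Of its 6 listed genes, 3 had reads, summing to 3134 CPM in library 1 and 2376 in library 2. Mir130a gave nearly all of them, with 2924 and 2280 CPM, and Mir130b had 188.6 and 85.4. The 3 tested genes were all higher in library 1 by adjusted p, beside 36.3% of all tested genes, and 2 of them, Mir130b and Mir301, were called, beside 12.2%. With TMM scaling 0 were called and 2 of 3 passed the adjusted p. Their median log2 ratio was -0.98, or -0.79 with TMM scaling. Mir130b, at a mean of 137.0 ± 73.0 CPM, was thus near the level of Mir148a and Mir152, whereas Mir130a, at 2602 ± 455.5 CPM, was far above every member of the mir-148/mir-152 family.

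The mir-29 family is also known for acting on DNA methyltransferase mRNAs, those of Dnmt3a and Dnmt3b. Its 4 genes summed to 4658 CPM in library 1 and 4851 in library 2, with Mir29a at 4468 and 4472 CPM. Mir29c had 156.1 and 334.5 CPM and was the 1 member called, higher in library 2, beside 5.52% of all tested genes. By adjusted p alone, 1 of the 4 genes was higher in library 2, beside 17.7% of all tested genes, and 2 were with TMM scaling. The median log2 ratio of the mir-29 genes was 0.36, beside -0.19 over all tested genes, and 0.55 with TMM scaling. The counts of Mir29b-1, Mir29b-2 and Mir29c are uncertain, since each shares 22 nucleotides or more with another locus.

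Among 11 genes known from cholesterol and lipid control, all with reads and all tested, 0 were called higher in library 2, beside 5.52% of all tested genes, and 2 higher in library 1, beside 12.2%. The called genes were Mir122, the abundant miRNA of hepatocytes, and Mir185. Mir122 had 118.5 and 13.4 CPM and Mir185 1420 and 149.8. With TMM scaling Mir27a was also called, higher in library 2. By adjusted p alone 2 were higher in library 2, Mir27a and Mir27b, and 3 in library 1, the third being Mir128-1, beside 17.7% and 36.3% of all tested genes. Mir27b had 4058 and 6441 CPM, and Mir27a 1180 and 2156. Mir30c-2 was at 927.3 and 935.8 CPM, Mir30c-1 at 454.1 and 451.5, and Mir223 at 229.1 and 204.0. Mir128-1 (174.1 and 125.1 CPM) and Mir144 (143.0 and 139.6) were close to the level of Mir148a. Both Mir128 and both Mir30c loci share 22 nucleotides or more with another locus, so their levels are uncertain. The list's median log2 ratio was -0.17, near the -0.19 of all tested genes, and 0.02 with TMM scaling.

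**Figure D5:**
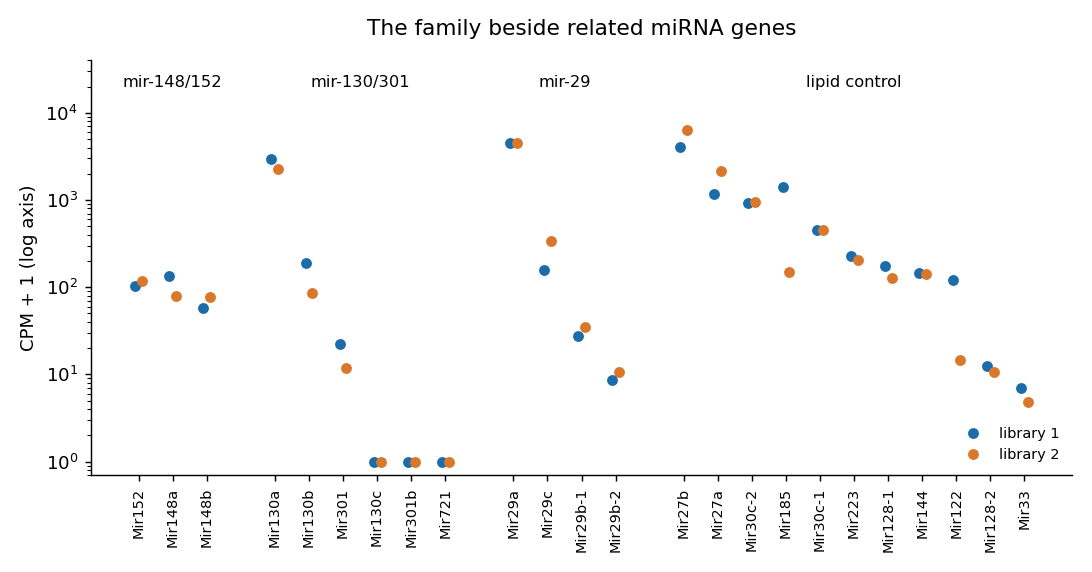
Level as CPM + 1 (y axis, log scale) in library 1 (blue) and library 2 (orange) for the 3 members, the mir-130/mir-301 family, the mir-29 family and miRNAs of lipid control, each sorted by mean level. The members lie between 56.5 and 134.0 CPM, below Mir130a, Mir29a and Mir27b, and 3 mir-130/mir-301 genes had 0 reads.

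As Mir148a is abundant in liver and pancreas, miRNAs of those organs were set beside it. In bulk tissue, fewer cells of a type and less RNA per cell cannot be told apart. Of the hepatic list, 4 of 4 genes had reads, and the list summed to 182.1 CPM in library 1 and 80.0 in library 2. That difference lay in Mir122, with 237 and 25 sense reads, beside 28 and 32 antisense reads. The other 3 genes, Mir192, Mir194-1 and Mir194-2, summed to 63.5 and 66.6 CPM. Both Mir194 loci share 22 nucleotides or more with another locus, so their levels are uncertain. Mir148a was thus higher in the library with more Mir122, and the part of this in its level was not tested.

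The pancreatic list summed to 18.5 CPM in library 1 and 8.59 in library 2. Most of it was Mir375, an islet miRNA, with 34 and 9 reads. Mir216a and Mir217, which mark the acinar cells, had 0 and 3 reads in library 1 and 1 and 6 in library 2. The leukocyte list, led by Mir155, summed to 6892 and 6777 CPM. The endothelial list, nearly all of it Mir126a, summed to 48925 and 63819. Other miRNAs counted as endothelial or angiogenic, but not on this list, had their higher CPM in library 1. Mir139 had 46401 and 42992 CPM, Mir221 1997 and 1765, and Mir222 218.1 and 77.3. The smooth muscle list summed to 39517 and 38697 CPM and the erythroid list to 2452 and 1970. The fibroblast list, nearly all of it Mir214, summed to 2484 and 1201 CPM. Mir21a, also counted as a fibroblast miRNA but not on this list, went the other way, with 1776 and 6143 CPM. The skeletal muscle list, led by Mir206, summed to 98.5 and 5.37. The cardiac muscle list summed to 8556 and 6697 CPM. Of the 9 list sums, the hepatic one included, 8 had the larger value in library 1 and the endothelial sum had it in library 2. All tested genes leaned the same way, with 36.3% higher in library 1 by adjusted p and 17.7% higher in library 2. Several sums were set by 1 gene, so they are not read as directions of cell types. With TMM scaling the smooth muscle and leukocyte sums turned, which left 6 larger in library 1. Single genes could differ from their list. In the cardiac muscle list, Mir499 was higher in library 2 and Mir208a in library 1. Of the erythroid list, Mir451a had 1115 and 669.0 CPM. Mir144, at 143.0 and 139.6, and Mir486, at 1193 and 1161, were nearly even. By adjusted p, 2 leukocyte genes were higher in library 2 and 2 in library 1, beside 17.7% and 36.3% of all tested genes. Those higher in library 2 were Mir150 (1088 and 1489 CPM) and Mir342 (1535 and 1827). Mir145a of the smooth muscle list had 1244 and 1422 CPM, against 38272 and 37276 for Mir143. Mir199b of the fibroblast list had 4.00 and 6.98 CPM. Mir199a-1, Mir199a-2 and Mir199b share 22 nucleotides or more with another locus, so their levels are uncertain. The part of any of these cell types in the family's levels was not tested.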

How the data were processed

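Each library came with 1 table without a header. The deposited values are raw read counts per miRNA gene, in whole numbers. Its 3 columns were taken from their values as all reads, sense reads and antisense reads. Per the text deposited beside the tables, the assembly was mm10 and the annotation M21. Which aligner and counter were used is not given in the sources used here. In each table the first 4 rows name no gene (reads unmapped, mapped to several places, outside miRNA genes or ambiguous) and were left out of totals and tests. They held 63.5% and 61.9% of reads.

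Gene identifiers were matched to GENCODE M21 (2202 of 2202), and sequences came from RefSeq (GRCm38.p6), which is the C57BL/6J reference, so CAST alleles were not examined. CPM used sense counts over assigned sense reads, and 0.5 was added to each count for log2 ratios. Tests used scipy 1.17.1, TMM factors edgeR 4.0.16 and size factors DESeq2 1.42.0. Alternatives were the strand column, denominators, scalings, count filters of 1 and 100 reads, a fold of 1.5, a pseudocount of 1, and each replicate left out.

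Genes named are the 3 members, the 3 nearest in level to each, the nearest miRNA gene of each, and listed genes whose mean reached 100 CPM (otherwise the highest of a list). For cell type lists the sums and selected genes are given. Mir139, Mir221, Mir222 and Mir21a were added from outside these lists after their values had been seen. Members and lists were chosen with earlier results of these data known.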

Additional observations from a re-analysis of the deposited data

Results flagged for a closer look

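Reads that mapped to several places were a signal outside the counted genes, 2273922 in library 1 and 2098983 in library 2, above the 3 reads that a count of 0 allows. They were assigned to no gene, and how many came from mir-148/mir-152 strands was not examined.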

How the results depend on the processing

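No paired analysis was possible because there is 1 group, so no replicate number is shared between groups. The log2 ratios of the 3 members kept their direction under every alternative run. Mir148a (-0.77) passed both criteria only with a 1.5-fold threshold. The adjusted p of Mir148b ranged from 0.00143 with TMM scaling to 0.0531 with no count filter, and that of Mir152 from 0.0299 with TMM scaling to 0.603 with no filter. The count of called genes went from 61 to 33 with 100 or more summed reads, where fewer genes were tested, and to 105 with the 1.5-fold threshold. The log2 ratio of the family sum, an alternative chosen after seeing the data, was 0.0698 with TMM scaling and 0.0695 with DESeq2 size factors. With all reads as denominator, means were by construction lower, at 39.4 (Mir148a), 24.9 (Mir148b) and 40.9 (Mir152) per 1000000 reads, and the family share was 0.0105%. With both strands together, whose total of assigned reads is smaller, Mir148b was at 86.7 and Mir152 at 142.2 CPM and the share at 0.0366%. Without the most abundant gene in the total, Mir152 was at 127.8 CPM and the share at 0.0329%. Leaving out either replicate gave 78.4 to 134.0 CPM for Mir148a, 56.5 to 76.8 for Mir148b, 103.5 to 115.4 for Mir152 and a share of 0.0271% to 0.0294%. The mean log2 ratio of Mir148a over Mir152 was -0.09, and -0.56 to 0.37 with 1 library. The 113 to 268 reads of a member set the width of its interval, and an SD over 2 libraries is itself imprecise.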

Other observations

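The mir-10 and mir-196 genes were also listed, since some of them lie on the same chromosomes as members of the mir-148/mir-152 family. Mir10a, at 1377 and 1272 CPM in libraries 1 and 2, and Mir10b, at 696.7 and 667.4, were the highest. Mir196b had 114.0 and 59.1 CPM, a log2 ratio of -0.95 (adjusted p = 2.45e-08 in the exact conditional binomial test), and was not called at 2-fold. Mir196a-1 had 0 reads and Mir196a-2 had 1 and 0, but these 2 loci share 22 nucleotides, so their reads can be undercounted. Of the 3 tested genes, 0 were called, beside 17.7% of all tested genes, and 2 were higher in library 1 by adjusted p, beside 36.3%, with a median log2 ratio of -0.11 beside -0.19 over all tested genes. With TMM scaling that median was 0.08 and 1 gene passed the adjusted p in each direction.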
